A study of Xenopus laevis with 17 samples.

Results

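Animal caps of the frog Xenopus laevis that received a foxn4 morpholino were compared with caps in which Multicilin alone was switched on. An animal cap is the ectoderm dissected off the pole of a young embryo, and left alone in culture it becomes epidermis. The comparison was defined by the sample titles and took 5 of the 17 samples of the series, 2 morpholino libraries and 3 control libraries, out of 9 RNA libraries in all. The foxn4 MO caps came from embryos injected with Multicilin mRNA and a foxn4 morpholino (n = 2). A second group with the same target, the foxn4 CRISPR caps, had Multicilin mRNA with cas9 protein and a foxn4 gRNA (n = 2), and is used below where the 2 ways of reducing Foxn4 were tested against each other. The MCIDAS control caps had MCIDAS-HGR mRNA, Multicilin fused to the human glucocorticoid receptor, as their only listed agent (n = 3). Each of these groups thus carried Multicilin, and the labels name no control morpholino. The remaining RNA group, foxj1 CRISPR caps (n = 2), has foxj1 as its CRISPR target by its sample titles. It shared the model fit with the other groups and is given beside some results. Per the labels' protocols, each condition used 20 caps dissected at stage 10, 20 µM dexamethasone was added at mid-stage 11, and caps were harvested 9 h later at 22 °C, near stage 18. Non-stranded poly-A libraries were made, so reads of a gene and of an antisense partner cannot be told apart.

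The control libraries were re-used from an earlier study, per the labels, while both morpholino libraries belonged to the later one. Between foxn4 MO caps and MCIDAS control caps, study and group therefore cannot be told apart. Whether replicates were separate clutches is not stated in the labels, so p-values speak of the spread among these samples alone, which may be technical. In bulk caps, fewer cells of a type and less RNA per cell cannot be told apart either.

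A multiciliated cell carries many motile cilia that move fluid over the embryonic skin. Each cilium grows from a basal body, a centriole made in the cytoplasm, and its core, the axoneme, beats by means of dynein arms that are assembled in the cytoplasm beforehand. Multicilin is a coiled-coil protein that works with E2F factors to start this fate, and Foxj1 is the forkhead factor that turns on the motile cilium gene set in many vertebrate tissues. Foxn4, also of the forkhead family, is known for its part in choosing neuron types in the retina and spinal cord. A morpholino is an antisense oligonucleotide that blocks translation or splicing of its target and does not cut DNA. It can leave the target's transcript in place, so the FOXN4 transcript level does not check the morpholino label.

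The foxn4 MO libraries held 8570033 and 16250144 estimated reads over 24383 gene models, and the MCIDAS control libraries 19209914, 19367416 and 22041340. A gene model is a transcript model placed on a scaffold of the version 7.1 assembly, and the X. laevis genome holds many genes in paired copies. Of 13473 symbols 7888 had 2 or more models, and how reads shared by copies are split is uncertain. Values below are those of single models, and a call on one model says nothing of the gene's other copies. The average read matched 1.93 models in each foxn4 MO library and 1.52 to 1.60 in MCIDAS control libraries; its part in the results was not tested, and counts from uniquely matching reads are set beside results below where they differ. The 100 most abundant models took 23.6 and 27.9% of reads in foxn4 MO libraries, against 32.1 to 32.5% in MCIDAS control libraries. Levels are CPM, the reads of a model scaled to a common library size, and a model was called at an adjusted p under 0.05 in edgeR's quasi-likelihood test, with log2 fold changes given ± standard error as foxn4 MO over the group compared. Where values are given in short, MO caps are the foxn4 MO caps and control caps the MCIDAS control caps.

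Neither FOXN4, FOXJ1 nor MCIDAS was called lower in foxn4 MO caps. FOXN4 at 1564919 to 1577883 of scaffold 143664 stood at 464 and 514 CPM in foxn4 MO caps, against 237, 52.8 and 306 CPM in MCIDAS control caps (log2 fold change 1.30 ± 0.52, edgeR adjusted p = 0.0641). Both morpholino libraries lay above all 3 controls, yet the difference was not called. Without MCIDAS control replicate 2, in which this copy was lowest, or without replicate 3 it was called, at 0.83 and 1.74 on the log2 scale. The other FOXN4 copy, at 1820555 to 1834747 of scaffold 44061, stood at 445 and 506 CPM in foxn4 MO caps, against 388, 78.98 and 511 CPM in MCIDAS control caps (log2 fold change 0.54 ± 0.55, edgeR adjusted p = 0.438), and the groups overlapped. The foxn4 CRISPR caps had 215 and 218 CPM of the copy on scaffold 143664 and 354 and 379.9 CPM of the other.

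FOXJ1 had 3 models and none was called. The most abundant, on scaffold 71264, stood at 1069.97 and 878 CPM in foxn4 MO caps, against 722, 585 and 888 CPM in MCIDAS control caps (log2 fold change 0.41 ± 0.23, edgeR adjusted p = 0.168). The model on scaffold 106323 had 584 and 784 CPM in MO caps against 635, 471 and 728 in control caps (log2 fold change 0.16 ± 0.25, edgeR adjusted p = 0.616). The one on scaffold 23403 had 396 and 443 CPM in MO caps against 337, 152 and 433 in control caps (log2 fold change 0.45 ± 0.36, edgeR adjusted p = 0.325). All 3 copies were well expressed in every library, and the groups overlapped for each. MCIDAS, which encodes Multicilin, was measured on 2 models, whose counts can hold both injected and endogenous transcript. On scaffold 337825 it stood at 1560.2 and 1135 CPM in foxn4 MO caps, against 465, 128 and 717 CPM in MCIDAS control caps (log2 fold change 1.63 ± 0.51, edgeR adjusted p = 0.0259), with both morpholino libraries above all controls. That call was lost without foxn4 MO replicate 1 (1.37), foxn4 MO replicate 2 (1.83) or MCIDAS control replicate 1 (1.67). The model on scaffold 52441 had 738 and 833 CPM in MO caps against 449.9, 169 and 547 in control caps and was not called (log2 fold change 1.01 ± 0.39).

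Across all 19058 models tested, 4553 rose in foxn4 MO caps (23.9%) and 4018 fell (21.1%), 45% in all, against MCIDAS control caps. The median log2 fold change over all tested models was 0.08. Against foxn4 CRISPR caps, where both groups come from the later study, 505 models rose (2.65%) and 537 fell (2.82%), 5.47% in all. Counts over gene lists are to be read against these shares. With foxn4 MO replicate 1, the shallower library, left out, 3000 models rose and 2310 fell against MCIDAS control caps. Against foxn4 CRISPR caps the counts without that library were 166 and 81, and without either foxn4 CRISPR replicate they were 69 and 125 or 61 and 60. They were 318 and 452 without foxn4 MO replicate 2. Of 42 models named in this report and called against foxn4 CRISPR caps, 38 lost that call without some library of the 2 groups.

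Among models with at least 5 CPM in the higher group and no overlap with the controls, the 12 largest rises were from genes of varied function. P2RX7, an ATP-gated ion channel, stood at 6.78 and 43.1 CPM in foxn4 MO caps, against 0.127, 0 and 0 CPM in MCIDAS control caps (ratio 762, 95% interval 210.05 to 6295, edgeR adjusted p = 0.000438). ADA, adenosine deaminase, had 22.1 and 58.2 CPM in MO caps against 0, 0.0564 and 0.0574 in control caps (ratio 1147, 95% interval 317 to 9487, edgeR adjusted p = 4.69e-05). PTPRC, the CD45 phosphatase of white blood cells, had 10.1 and 3.70 CPM in MO caps against 0, 0.0564 and 0 in control caps (ratio 308, 95% interval 54.4 to 12211, edgeR adjusted p = 0.000134). These 3 models were at or next to 0 in all controls, but the reads behind them differed in kind. In foxn4 MO caps 84.9% of P2RX7 reads matched that model alone, against 0.951% for ADA and 0% for PTPRC. Other P2RX7 copies were present in the controls. That on scaffold 25254 rose (14.5 and 13.2 CPM in MO caps against 8.12, 4.51 and 7.34 in control caps, log2 fold change 1.06 ± 0.31). That on scaffold 50671 was not called (3.34 and 6.34 CPM in MO caps against 8.25, 4.85 and 9.58 in control caps).

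The other large rises were AK5, an adenylate kinase (5.80 and 5.56 CPM in MO caps against 0, 0.0564 and 0 in control caps), NINJ2, a membrane protein of nerve injury (26.9 and 36.3 CPM in MO caps against 0.0635, 0.169 and 0 in control caps), and the histone gene HIST2H2AB (20.2 and 37.4 CPM in MO caps against 0.381, 0 and 0 in control caps). BCS1L, a mitochondrial complex III assembly factor, was at least 224-fold higher, and RBM44 and TMEM174 were each at least 139-fold higher over controls at 0. CA4, GSC and PSAT1, described below with their groups, complete the 12 largest rises. Of those 12 models, 8 drew under 5% of their foxn4 MO reads from uniquely matching reads, and the median share was 1.07%. Over all models that rose, 303 were under that limit, 6.66%. BCS1L and RBM44 had no uniquely matching reads in foxn4 MO caps to test, and AK5 over its summed copies stood lower, at -2.72 on the log2 scale. Its abundant copy on scaffold 229341 fell (17.9 and 31.4 CPM in MO caps against 182, 105 and 334 in control caps, -3.07 ± 0.69).

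The 12 largest falls rested on other reads: their median unique share in MCIDAS control caps was 96.1%, and 0 of 12 were under 5%. ASTL, an astacin-like protease related to hatching enzymes, stood at 1.57 and 3.70 CPM in foxn4 MO caps, against 1255, 1779 and 1488 CPM in MCIDAS control caps (log2 fold change -9.11 ± 0.67, edgeR adjusted p = 5.26e-05). It was among the abundant messages of every control and near background in both morpholino libraries, with 15.2 and 27.5 CPM in foxn4 CRISPR caps. CLDN1, a tight junction claudin, stood at 0 and 0.112 CPM in foxn4 MO caps, against 24.7, 173 and 48.02 CPM in MCIDAS control caps (control over MO ratio 983, 95% interval 326 to 9744, edgeR adjusted p = 0.000416). A model of CAV1, the coat protein of caveolae, was at 0 in both morpholino libraries, against 4.76, 18.2 and 2.58 CPM in MCIDAS control caps, at least 81.1-fold lower. More abundant CAV1 copies fell but stayed present. On scaffold 187321 the copy had 73.0 and 186 CPM in MO caps against 2050, 983 and 3597 in control caps. On scaffold 315413 it had 73.9 and 329 CPM in MO caps against 1244, 585 and 1724 in control caps.

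The remaining falls were spread over several classes, with BMP1 described below. A model of AVPR1B, a vasopressin receptor, was at 0 in foxn4 MO caps, against 8.19, 23.6 and 6.02 CPM in MCIDAS control caps, at least 119-fold lower. SYT13, a synaptotagmin, had 0 and 0.0561 CPM in MO caps against 14.2, 10.5 and 15.8 in control caps, FCN1, a ficolin, 0 and 0.168 CPM in MO caps against 18.5, 25.4 and 18.99 in control caps, and OSGIN1 0.0982 and 0 CPM in MO caps against 7.11, 12.02 and 8.03 in control caps. AGTR2, an angiotensin receptor (0 and 0 CPM in MO caps against 0.127, 16.8 and 36.4 in control caps), and MYOT, a muscle Z-disc protein (0 and 0 CPM in MO caps against 0.127, 13.4 and 24.2 in control caps), rested on MCIDAS control replicates 2 and 3. Both calls ended without either morpholino library, at -11.03 and -10.93 for AGTR2 and -10.53 and -10.43 for MYOT as fitted log2 values. Another MYOT copy, on scaffold 48253, rose (13.8 and 9.43 CPM in MO caps against 3.05, 1.58 and 1.89 in control caps, log2 fold change 2.41 ± 0.35). GPR151, an orphan receptor, had 1.96 and 1.29 CPM in MO caps against 652, 84.8 and 309.5 in control caps and was not called without foxn4 MO replicate 1 (-8.07), foxn4 MO replicate 2 (-7.47) or MCIDAS control replicate 1 (-6.95). Other copies of AVPR1B (scaffold 20505), FCN1 (scaffold 47683 at 3058901, and scaffold 392913) and GPR151 (scaffold 27038) were not called. That of SYT13 on scaffold 25194 fell.

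**Figure D1:**
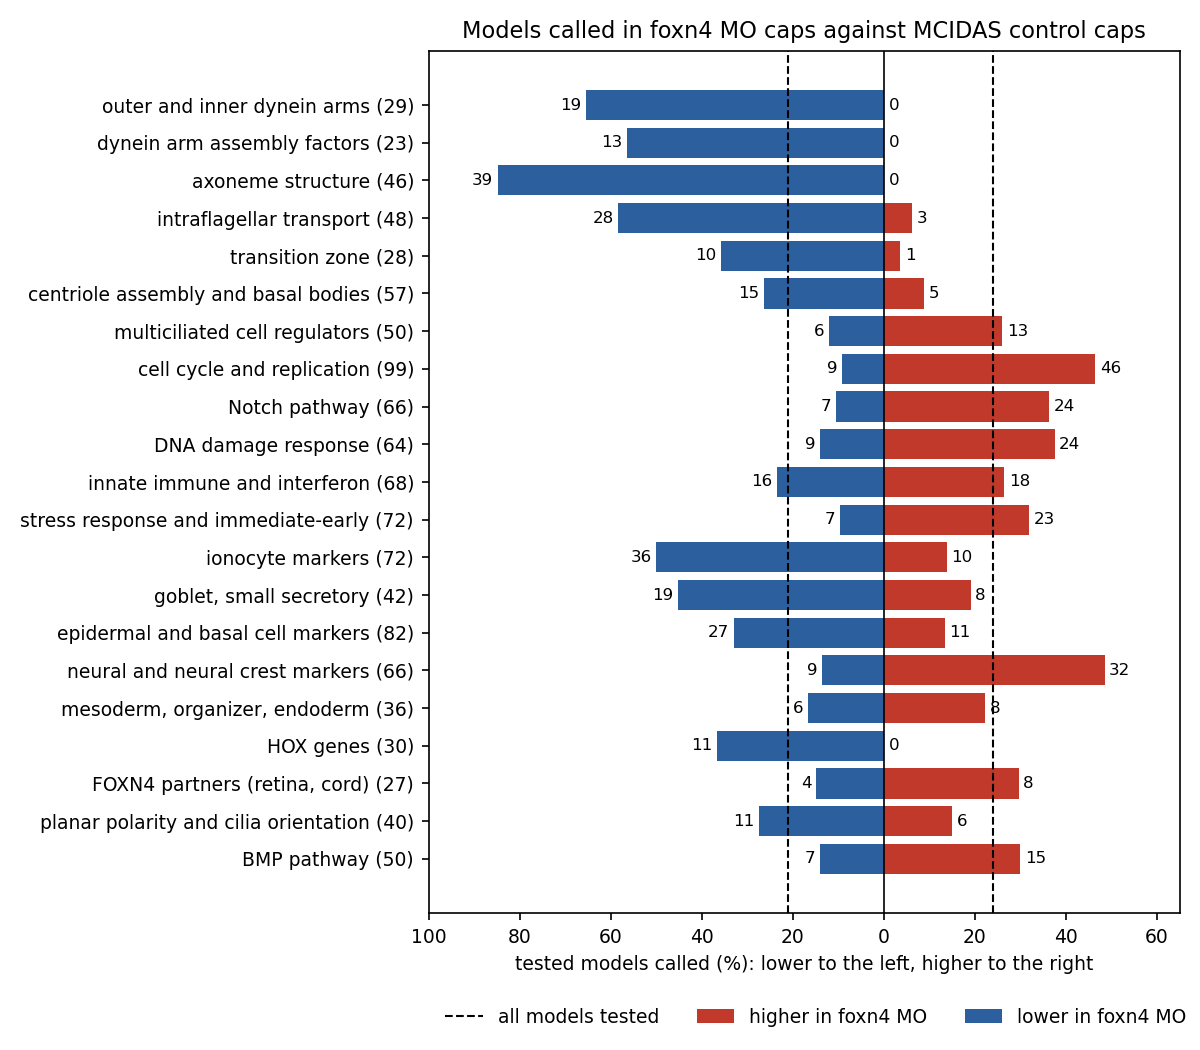
Share of tested gene models called in each gene list, foxn4 MO caps against MCIDAS control caps, with models lower to the left and models higher to the right. Numbers at the bars count models, numbers in brackets give models tested, and dashed lines mark 21.1% lower and 23.9% higher over all models. Axoneme structure has the longest bar to the left, 39 of 46, and neural and neural crest markers the longest to the right, 32 of 66.

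Dynein arms are the motors of the cilium. Of 29 tested models of outer and inner arms, 19 fell, 10 were not called and 0 rose, with a median log2 fold change of -1.14 against 0.08 over all models. DNAH2, an inner arm heavy chain, stood at 146 and 357 CPM in foxn4 MO caps, against 2329, 1056 and 1368 CPM in MCIDAS control caps (log2 fold change -2.66 ± 0.47, edgeR adjusted p = 0.00181). DNAH7, another inner arm heavy chain, had 377 and 606 CPM in MO caps against 2351, 1554 and 1449.8 in control caps (log2 fold change -1.86 ± 0.34, edgeR adjusted p = 0.00211). DNAH9, an outer arm heavy chain, had 619.9 and 1044 CPM in MO caps against 3664, 2214 and 2505 in control caps (log2 fold change -1.75 ± 0.36, edgeR adjusted p = 0.00362). For each of these motors both morpholino libraries lay below all controls, and each message was still present at over 100 CPM in foxn4 MO caps. Without foxn4 MO replicate 1, 10 fell and 1 was called higher. None of the 29 was called against foxn4 CRISPR caps.

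Axoneme structure was the list with most falls: 39 of 46 models fell and 0 rose, with a median of -1.49. TEKT3, a tektin filament protein of the doublet microtubules, stood at 2.26 and 9.54 CPM in foxn4 MO caps, against 295, 167 and 335 CPM in MCIDAS control caps on scaffold 163806 (log2 fold change -5.45 ± 0.63, edgeR adjusted p = 0.000247). Its second copy, on scaffold 81941, had 11.9 and 30.3 CPM in MO caps against 349, 238 and 395 in control caps (log2 fold change -3.95 ± 0.49, edgeR adjusted p = 0.000338). ODF3, a protein of sperm tails and cilia, had 67.6 and 130.3 CPM in MO caps against 1124, 594 and 1498 in control caps (log2 fold change -3.44 ± 0.49, edgeR adjusted p = 0.000617). The TEKT3 and ODF3 libraries were far apart between the groups, and within the foxn4 MO group replicate 2 was the higher of the pair for each. The falls numbered 21 without foxn4 MO replicate 1. Of the 46, 1 was called against foxn4 CRISPR caps, and it was lower.

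Factors that put dynein arms together in the cytoplasm fell in part, 13 of 23 models with 0 rises and a median of -0.83. DNAAF3 stood at 92.8 and 121 CPM in foxn4 MO caps, against 304, 174 and 415 CPM in MCIDAS control caps (log2 fold change -1.48 ± 0.35, edgeR adjusted p = 0.00742). SPAG1 had 38.6 and 79.7 CPM in MO caps against 153, 117 and 216 in control caps (log2 fold change -1.45 ± 0.36, edgeR adjusted p = 0.00891). RUVBL1, an ATPase shared with chromatin complexes, had 261 and 299 CPM in MO caps against 752, 405 and 904 in control caps (log2 fold change -1.29 ± 0.32, edgeR adjusted p = 0.00919). This count was the least stable of the ciliary lists: it was 1 without foxn4 MO replicate 1, 5 without foxn4 MO replicate 2, 7 without MCIDAS control replicate 1 or 3, and 20 without MCIDAS control replicate 2. The 3 named calls ended without foxn4 MO replicate 1, at -1.31, -1.03 and -1.21. With uniquely matching reads 8 of the 23 fell and RUVBL1 was not called (-0.52).

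Intraflagellar transport carries building blocks along the growing cilium. Of its 48 models, 28 fell and 3 rose, with a median of -0.91. KIFAP3, the accessory subunit of the kinesin-2 motor, stood at 4.03 and 2.02 CPM in foxn4 MO caps, against 39.2, 13.99 and 36.9 CPM in MCIDAS control caps on scaffold 23165 (log2 fold change -3.34 ± 0.62, edgeR adjusted p = 0.00224). On scaffold 78978 its copy had 26.3 and 20.3 CPM in MO caps against 184, 81.1 and 189 in control caps (log2 fold change -2.70 ± 0.39, edgeR adjusted p = 0.000712). IFT46, a subunit of the transport complex B, stood at 107 and 100.9 CPM in foxn4 MO caps and 332 and 306 CPM in foxn4 CRISPR caps, against 594, 365 and 617 CPM in MCIDAS control caps. It was lower than in both (log2 fold change -2.34 ± 0.28, edgeR adjusted p = 0.000292 against MCIDAS control caps, log2 fold change -1.61 ± 0.29, edgeR adjusted p = 0.0135 against foxn4 CRISPR caps). The IFT46 call against foxn4 CRISPR caps ended without any 1 library of those 2 groups, at -1.575 to -1.677. The 3 models that rose were the chaperonin-like genes BBS10 (23.6 and 18.4 CPM in MO caps against 7.55, 3.27 and 6.54 in control caps, log2 fold change 1.86 ± 0.37) and MKKS (19.3 and 16.4 CPM in MO caps against 6.92, 8.41 and 9.07 in control caps, 1.13 ± 0.32) and the complex A subunit TTC21B (24.2 and 13.7 CPM in MO caps against 10.03, 6.94 and 6.08 in control caps, 1.30 ± 0.34). MKKS was not called without foxn4 MO replicate 1 (1.004) or MCIDAS control replicate 1 (1.02), nor TTC21B without foxn4 MO replicate 1 (0.83). The count of falls was 11 without foxn4 MO replicate 1 and 14 without replicate 2.

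At the transition zone, the gate at the base of the cilium, 10 of 28 models fell and 1 rose, with a median of -0.74. TMEM107 stood at 7.37 and 10.9 CPM in foxn4 MO caps, against 25.5, 14.7 and 33.2 CPM in MCIDAS control caps (log2 fold change -1.42 ± 0.39, edgeR adjusted p = 0.0147). ANKS6, which acts in the inversin compartment next to the gate, had 0.295 and 1.85 CPM in MO caps against 4.19, 2.82 and 4.13 in control caps (log2 fold change -1.70 ± 0.61, edgeR adjusted p = 0.0423). TMEM67, a membrane protein of the gate, had copies on both sides. On scaffold 34503 it was the model that rose (30.3 and 23.9 CPM in MO caps against 19.9, 12.7 and 14.2 in control caps, log2 fold change 0.79 ± 0.27). The more abundant copy on scaffold 227593 fell (132 and 188 CPM in MO caps against 313, 185 and 379 in control caps, -0.87 ± 0.31). The count of falls moved with the libraries kept: 1 without foxn4 MO replicate 1, 6 without MCIDAS control replicate 1, 19 without replicate 2 and 5 without replicate 3. TMEM107, ANKS6 and TMEM67 on scaffold 34503 were not called without foxn4 MO replicate 1 (-1.18, -1.01 and 0.61). ANKS6 was also lost without MCIDAS control replicate 1 or 3 (-1.60, -1.62), and that TMEM67 model without replicate 2 or 3 (0.65, 0.73).

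**Figure D2:**
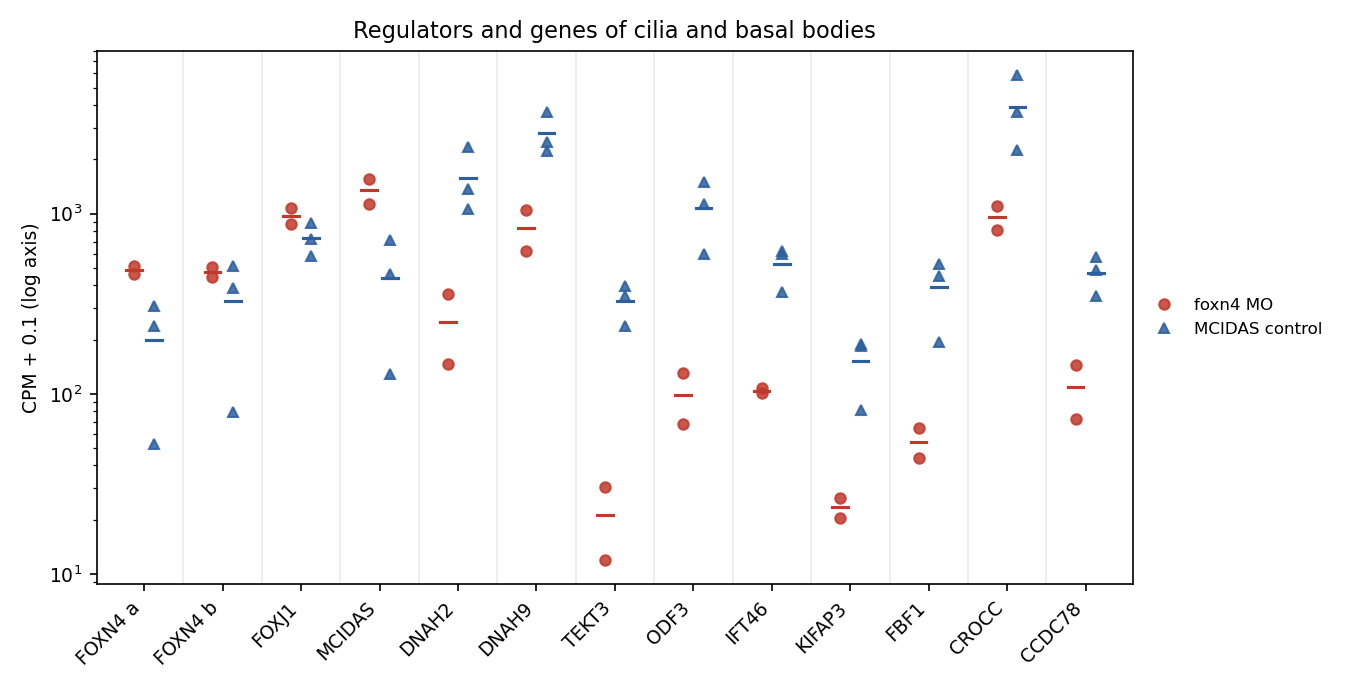
Levels of 13 gene models in foxn4 MO caps (circles, n = 2) and MCIDAS control caps (triangles, n = 3), as CPM plus 0.1 on a log axis, with bars at the group means. FOXN4 a lies on scaffold 143664 and b on 44061, FOXJ1 on 71264, MCIDAS on 337825, TEKT3 on 81941 and KIFAP3 on 78978. In foxn4 MO caps FOXN4 a and MCIDAS lie above all controls and FOXN4 b and FOXJ1 overlap them, and the 9 models to their right lie below all 3 controls.

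Genes of centriole assembly and basal bodies were divided. Of 57 models, 15 fell and 5 rose, with a median of -0.42, so that 26.3% fell, against 21.1% of all models. NEDD1, which recruits gamma-tubulin, stood at 3.34 and 2.75 CPM in foxn4 MO caps, against 16.2, 22.2 and 36.4 CPM in MCIDAS control caps (log2 fold change -3.04 ± 0.48, edgeR adjusted p = 0.00104). FBF1, a protein of the distal appendages that dock basal bodies at the membrane, had 43.7 and 64.2 CPM in MO caps against 452, 193 and 524 in control caps (log2 fold change -2.85 ± 0.42, edgeR adjusted p = 0.000735). CEP164, another appendage protein, had 35.3 and 36.1 CPM in MO caps against 311, 116 and 341 in control caps (log2 fold change -2.84 ± 0.43, edgeR adjusted p = 0.00083). CROCC, the rootlet protein, and CCDC78, a protein of the deuterosomes on which new centrioles form, were chosen after their values were seen. CROCC had 809.7 and 1101 CPM in MO caps against 5880.3, 2259 and 3644 in control caps (log2 fold change -2.04 ± 0.38, edgeR adjusted p = 0.00212). CCDC78 had 72.2 and 144 CPM in MO caps against 484, 348 and 572 in control caps (log2 fold change -2.11 ± 0.51, edgeR adjusted p = 0.00755).

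The 5 rises were 8.77% of the list, against 23.9% of all models. SASS6, the cartwheel protein that starts a new centriole, stood at 269.6 and 191 CPM in foxn4 MO caps, against 87.4, 48.3 and 115 CPM in MCIDAS control caps (log2 fold change 1.46 ± 0.33, edgeR adjusted p = 0.00563). CEP192, a scaffold of the pericentriolar material, had 25.2 and 13.9 CPM in MO caps against 9.96, 6.77 and 5.97 in control caps (log2 fold change 1.36 ± 0.36, edgeR adjusted p = 0.0115). CEP57 had 5.99 and 5.33 CPM in MO caps against 2.16, 2.37 and 2.01 in control caps (log2 fold change 1.37 ± 0.31, edgeR adjusted p = 0.00604). In this list the named models of docking and rootlet proteins were lower in both morpholino libraries than in any control. Those of SASS6, CEP192 and CEP57 were higher in both. All these models were picked as the largest changes or after their values were seen, so they do not stand for the list. The SASS6 copy on scaffold 47606 overlapped the controls (log2 fold change 0.024 ± 0.335, edgeR adjusted p = 0.960). It was not called, nor was the NEDD1 copy on scaffold 18184 (-1.24 ± 0.48). Other copies of CEP57, CEP164 and CROCC were called in the same direction as the named ones. The named CCDC78, SASS6 and CEP192 models were not called without foxn4 MO replicate 1 (-1.70, 1.18 and 0.87). The count of falls was 8 without foxn4 MO replicate 1, 9 without replicate 2 and 32 without MCIDAS control replicate 2, and the count of rises was 2 without foxn4 MO replicate 1.

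Of 50 models of regulators of the multiciliated fate 13 rose (26%, against 23.9% of all models) and 6 fell (12%, against 21.1%), with a median of 0.41. FOXA2, a forkhead pioneer factor of endoderm and floor plate, stood at 3.44 and 3.59 CPM in foxn4 MO caps, against 0.19, 0 and 0.229 CPM in MCIDAS control caps (log2 fold change 4.58 ± 0.70, edgeR adjusted p = 0.000885). GMNN, geminin, an inhibitor of replication licensing related to Multicilin, had 17.3 and 12.7 CPM in MO caps against 3.17, 5.25 and 3.56 in control caps on scaffold 23301 (log2 fold change 1.90 ± 0.32, edgeR adjusted p = 0.00136). On scaffold 73623 its copy had 9.73 and 5.05 CPM in MO caps against 1.52, 2.60 and 1.78 in control caps (log2 fold change 1.89 ± 0.40, edgeR adjusted p = 0.00418). FANK1 (13.7 and 15.8 CPM in MO caps against 77.9, 28.8 and 73.2 in control caps), the Iroquois factor IRX2 (13.5 and 12.3 CPM in MO caps against 54.6, 27.98 and 68.7 in control caps) and the forkhead factor FOXA1 (2.46 and 1.63 CPM in MO caps against 3.55, 16.1 and 3.56 in control caps) were the named falls, at -2.02 ± 0.40, -1.97 ± 0.37 and -1.94 ± 0.68. FOXA1 was not called without foxn4 MO replicate 1 (-2.25), foxn4 MO replicate 2 (-1.66) or MCIDAS control replicate 2 (-0.83). Another FOXA1 copy, on scaffold 203041, was not called (8.06 and 10.6 CPM in MO caps against 4.12, 8.24 and 5.16 in control caps). Its log2 fold change was 0.67 ± 0.35. The list had 6 rises and 2 falls without foxn4 MO replicate 1.

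Some regulators were picked after their values were seen because they act beside Multicilin. MYB stood at 340.1 and 239.8 CPM in foxn4 MO caps, against 124, 51.96 and 115 CPM in MCIDAS control caps (log2 fold change 1.58 ± 0.34, edgeR adjusted p = 0.00439). TFDP1, the partner of E2F factors, had 51.2 and 43.1 CPM in MO caps against 18.4, 14.4 and 17.8 in control caps on scaffold 338390 (log2 fold change 1.48 ± 0.23, edgeR adjusted p = 0.00104). On scaffold 167628 its copy had 45.5 and 26.999 CPM in MO caps against 12.7, 17.4 and 11.4 in control caps (log2 fold change 1.39 ± 0.29, edgeR adjusted p = 0.00419). RFX2 (266 and 245 CPM in MO caps against 174, 109.8 and 152 in control caps, 0.82 ± 0.23) was higher, and RFX3 (3.83 and 6.06 CPM in MO caps against 26.6, 11.7 and 9.01 in control caps, -1.66 ± 0.49) and TP73 (24.6 and 33.7 CPM in MO caps against 91.7, 46.3 and 78.4 in control caps, -1.31 ± 0.34) were lower. The 2 RFX factors, both known for ciliary gene control, moved in opposite directions. Without foxn4 MO replicate 1, RFX2 (0.75), RFX3 (-1.38), TP73 (-1.10) and TFDP1 on scaffold 167628 (0.96) were not called, nor RFX3 without MCIDAS control replicate 1 (-1.05). RFX2 was not called with all matching reads counted at each model (0.36).

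**Figure D3:**
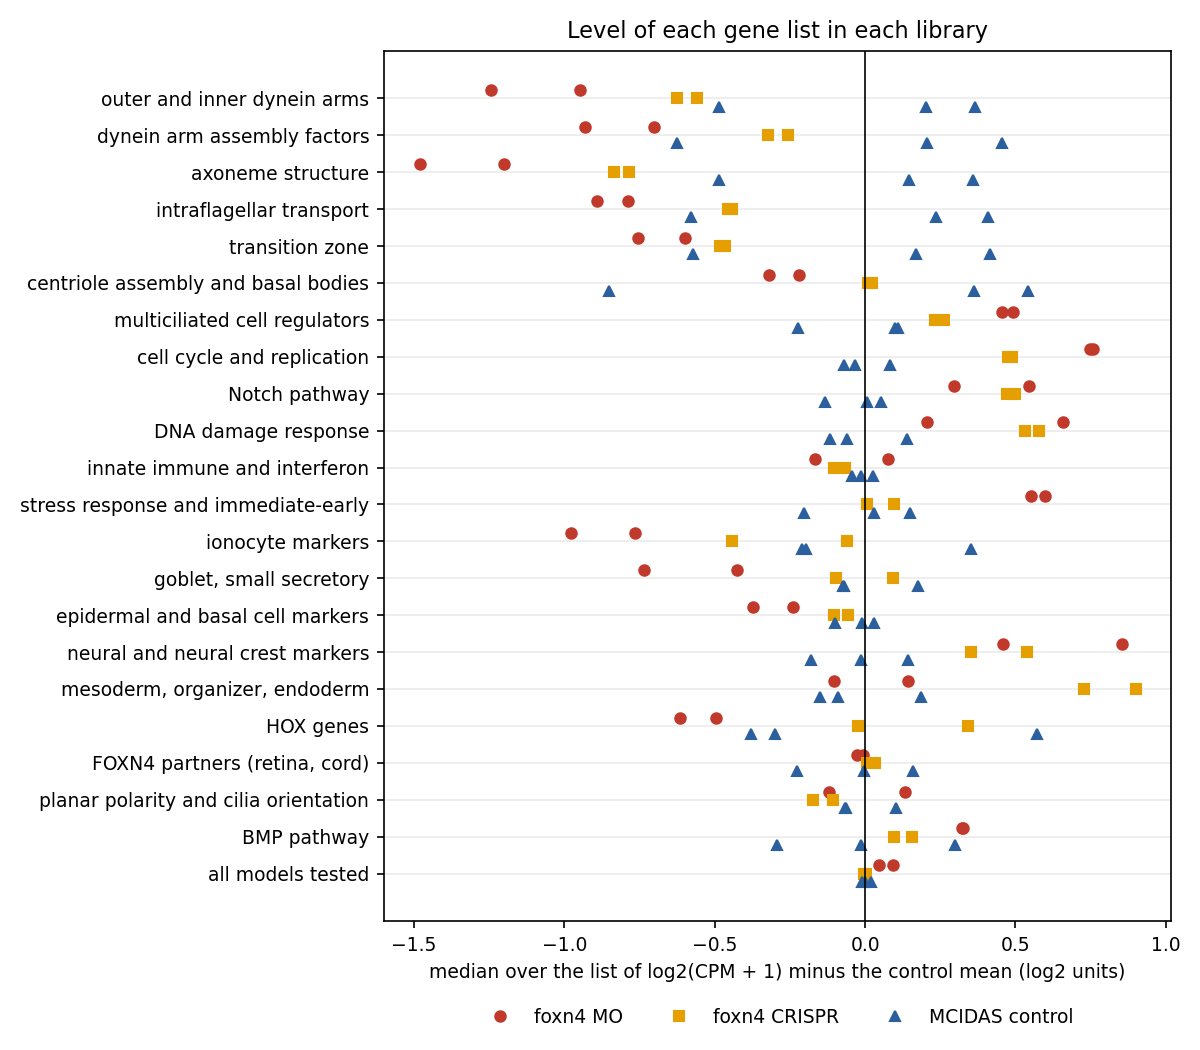
Level of each gene list in each library: the median over the list's tested models of log2(CPM + 1) minus the mean of the 3 controls, for foxn4 MO (circles), foxn4 CRISPR (squares) and MCIDAS control (triangles). Dynein arm genes stood at -1.24 and -0.95 in foxn4 MO libraries and at 0.20, -0.49 and 0.37 in MCIDAS control libraries. MCIDAS control replicate 2 is the low control in every list from dynein arms to centrioles, and for centriole genes it lies below both morpholino libraries.

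Library by library, dynein arm genes had a median of -1.24 and -0.95 in foxn4 MO caps, against 0.20, -0.49 and 0.37 in MCIDAS control caps, on the log2(CPM + 1) scale relative to the control mean. Centriole genes had -0.22 and -0.32 in foxn4 MO caps, against 0.36, -0.85 and 0.54 in MCIDAS control caps. MCIDAS control replicate 2 thus stood apart with a lower ciliary program, and for centriole genes the groups overlapped. Summed over 6 multiciliated markers with a model, foxn4 MO caps had 3266 and 3995 CPM and MCIDAS control caps 6628, 4322 and 8327 CPM.

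Of 99 models of the cell cycle and of DNA replication 46 rose (46.5%, against 23.9% of all models) and 9 fell, with a median of 0.78. CDC25B, a phosphatase that activates cyclin-dependent kinases at entry into mitosis, stood at 310.4 and 236 CPM in foxn4 MO caps, against 3.62, 9.20 and 3.96 CPM in MCIDAS control caps on scaffold 1168 (log2 fold change 5.60 ± 0.44, edgeR adjusted p = 5.77e-05). On scaffold 27038 its copy had 1015 and 1358 CPM in MO caps against 114, 77.5 and 104 in control caps (log2 fold change 3.59 ± 0.25, edgeR adjusted p = 5.11e-05). CCNE2, an E-type cyclin of S-phase entry, had 41.8 and 27.8 CPM in MO caps against 2.67, 2.82 and 2.58 in control caps (log2 fold change 3.69 ± 0.28, edgeR adjusted p = 5.26e-05). For both CDC25B and CCNE2 all morpholino values lay above all controls. The foxn4 CRISPR caps had 30.001 and 47.2 CPM of CDC25B on scaffold 1168, and the difference between foxn4 MO and foxn4 CRISPR caps was called (log2 fold change 2.82 ± 0.46, edgeR adjusted p = 0.00927). The list had 5 models higher and 1 lower than in foxn4 CRISPR caps.

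The named falls of the list were A-type cyclins and a second phosphatase. CCNA1, the cyclin A of eggs and early embryos in Xenopus, stood at 0.982 and 2.97 CPM in foxn4 MO caps, against 148, 13.6 and 279.5 CPM in MCIDAS control caps on scaffold 200825 (log2 fold change -6.14 ± 1.42, edgeR adjusted p = 0.00627). On scaffold 91366 its copy had 5.50 and 5.89 CPM in MO caps against 309, 10.6 and 259 in control caps (log2 fold change -5.08 ± 1.16, edgeR adjusted p = 0.00605). CDC25A had 11.7 and 24.8 CPM in MO caps against 583, 286 and 673 in control caps (log2 fold change -4.81 ± 0.54, edgeR adjusted p = 0.000216). Another CDC25A copy, on scaffold 53445, rose (29.7 and 22.4 CPM in MO caps against 5.71, 16.8 and 14.2 in control caps, log2 fold change 1.09 ± 0.39). MCIDAS control replicate 2 was the lowest control for both CCNA1 copies, and both calls ended without foxn4 MO replicate 1 (-5.63 and -5.04). Rises numbered 28 and falls 3 without foxn4 MO replicate 1.

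The Notch pathway decides by contact between neighbours which cells take the multiciliated fate. Of its 66 models 24 rose and 7 fell, with a median of 0.75. Among targets, HES5, a repressor switched on by Notch, stood at 30.3 and 26.7 CPM in foxn4 MO caps and 5.06 and 4.76 CPM in foxn4 CRISPR caps, against 1.08, 2.26 and 0.975 CPM in MCIDAS control caps (log2 fold change 4.30 ± 0.38, edgeR adjusted p = 9.18e-05 against MCIDAS control caps, log2 fold change 2.54 ± 0.41, edgeR adjusted p = 0.0089 against foxn4 CRISPR caps). Among ligands, DLL1 had 44.3 and 18.9 CPM in MO caps against 1.33, 4.74 and 3.39 in control caps on scaffold 34423 (log2 fold change 3.31 ± 0.52, edgeR adjusted p = 0.00103). On scaffold 135961 its copy had 0.393 and 5.56 CPM in MO caps against 0.444, 0.226 and 0.402 in control caps (log2 fold change 3.07 ± 0.86, edgeR adjusted p = 0.0152). Both morpholino libraries were above all controls for HES5 and for the first DLL1 copy. That DLL1 copy had 23.7 and 16.2 CPM in foxn4 CRISPR caps. It had 45.8 and 25.2 CPM in foxj1 CRISPR caps, another group of the later study (n = 2). The second copy was high in foxn4 MO replicate 2 and within the control range in replicate 1, and it was not called without replicate 2 (0.14).

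The receptor NOTCH1, chosen after its values were seen, had 35.7 and 25.6 CPM in MO caps against 2.28, 11.1 and 4.36 in control caps on scaffold 37448 (log2 fold change 2.36 ± 0.53, edgeR adjusted p = 0.00575). On scaffold 46073 its copy had 29.1 and 73.8 CPM in MO caps against 9.27, 20.03 and 8.84 in control caps (log2 fold change 2.02 ± 0.43, edgeR adjusted p = 0.00425). The named falls were PSEN2, a catalytic subunit of gamma-secretase (1.87 and 2.19 CPM in MO caps against 25.96, 5.13 and 18.4 in control caps, log2 fold change -3.01 ± 0.62), and the ubiquitin ligase MIB2 (0.884 and 0.842 CPM in MO caps against 5.71, 2.82 and 2.52 in control caps, -2.08 ± 0.52). NOTCH1 on scaffold 46073 was not called without foxn4 MO replicate 2 (1.19), and MIB2 without foxn4 MO replicate 1 or 2 (-2.12, -2.05). The falls of the list numbered 3 and 4 without foxn4 MO replicates 1 and 2.

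Some genes of the stress response and immediate-early genes were higher in foxn4 MO caps than in both other groups. Of 72 models 23 rose and 7 fell against MCIDAS control caps, with a median of 0.62, and 11 rose and 0 fell against foxn4 CRISPR caps, where 2.65% of all models rose. PSAT1, an enzyme of serine synthesis, stood at 130.4 and 29.1 CPM in foxn4 MO caps and 1.08 and 1.27 CPM in foxn4 CRISPR caps, against 0.19, 0.169 and 0.115 CPM in MCIDAS control caps on scaffold 29017 (log2 fold change 8.90 ± 0.79, edgeR adjusted p = 9.18e-05 against MCIDAS control caps, log2 fold change 6.06 ± 0.80, edgeR adjusted p = 0.00387 against foxn4 CRISPR caps). On scaffold 86871 its copy had 67.002 and 16.7 CPM in foxn4 MO caps, 0.361 and 0.159 CPM in foxn4 CRISPR caps and 0.698, 0.338 and 0.172 CPM in MCIDAS control caps (log2 fold change 7.37 ± 0.88, edgeR adjusted p = 0.00239 against foxn4 CRISPR caps). Both copies were near background in every library of the other 2 groups, and foxn4 MO replicate 1 was the higher morpholino library by several fold.

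DDIT3, also called CHOP, a transcription factor of unresolved endoplasmic reticulum stress, stood at 5.89 and 2.81 CPM in foxn4 MO caps and 0.361 and 0.317 CPM in foxn4 CRISPR caps, against 0, 0.169 and 0.0574 CPM in MCIDAS control caps (log2 fold change 5.64 ± 0.80, edgeR adjusted p = 0.000598 against MCIDAS control caps, log2 fold change 3.65 ± 0.83, edgeR adjusted p = 0.035 against foxn4 CRISPR caps). Other genes of this response were chosen after their values were seen. CHAC1, an enzyme that breaks down glutathione and a target of the same factors, had 94.8 and 31.7 CPM in foxn4 MO caps, 0.12 and 0.476 CPM in foxn4 CRISPR caps and 9.39, 6.21 and 1.84 CPM in MCIDAS control caps (log2 fold change 3.44 ± 0.64, edgeR adjusted p = 0.00213 against MCIDAS control caps, log2 fold change 7.56 ± 1.005, edgeR adjusted p = 0.0039 against foxn4 CRISPR caps). ATF4, the factor through which this response acts, had 633 and 611 CPM in MO caps against 347, 277 and 303 in control caps on scaffold 78978 (log2 fold change 1.01 ± 0.21, edgeR adjusted p = 0.00374). On scaffold 12423 its copy had 103 and 86.4 CPM in MO caps against 34.8, 46.1 and 26.4 in control caps (log2 fold change 1.40 ± 0.26, edgeR adjusted p = 0.00215). For DDIT3, CHAC1 and both ATF4 copies each morpholino library exceeded every library of the other 2 groups.

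Immediate-early genes were mixed. JUN, a subunit of AP-1, stood at 11.003 and 19.3 CPM in foxn4 MO caps and 2.05 and 1.90 CPM in foxn4 CRISPR caps, against 3.17, 3.72 and 3.39 CPM in MCIDAS control caps (log2 fold change 2.14 ± 0.32, edgeR adjusted p = 0.00084). IER2 had 18.7 and 40.5 CPM in MO caps against 8.88, 6.88 and 4.82 in control caps (log2 fold change 2.11 ± 0.41, edgeR adjusted p = 0.00271). KLF6 (1.67 and 1.63 CPM in MO caps against 14.1, 30.8 and 12.5 in control caps, log2 fold change -3.53 ± 0.52), JUNB (2.65 and 7.24 CPM in MO caps against 29.3, 38.3 and 16.1 in control caps, -2.47 ± 0.52) and EGR1 (0.196 and 0.168 CPM in MO caps against 1.27, 0.959 and 0.459 in control caps, -2.26 ± 0.73), also of this class, were lower. EGR1 was not called without foxn4 MO replicate 1 (-2.35) or replicate 2 (-2.14) and stood on the other side, at 1.11 and not called, with all matching reads. Over the summed copies of JUN the log2 value was 0.13 and not called. The falls of the list numbered 4 without foxn4 MO replicate 1.

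**Figure D4:**
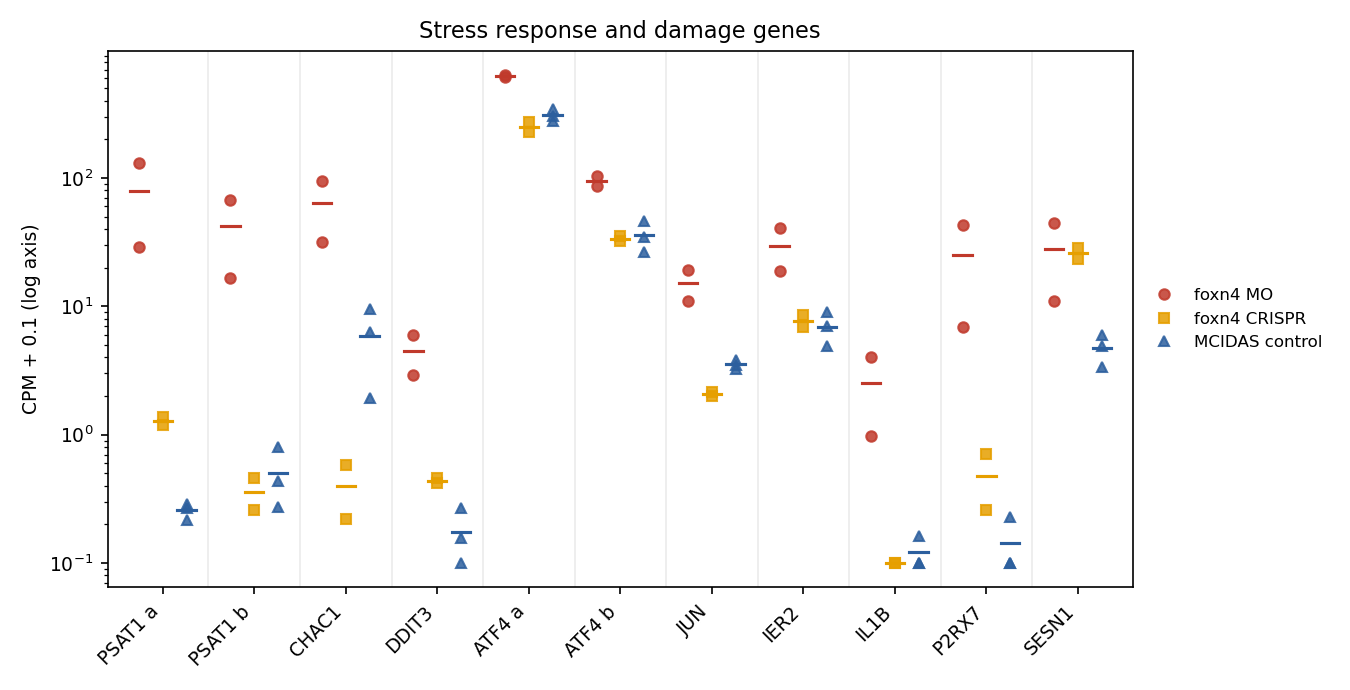
Levels of 11 gene models of stress, damage and danger signalling in foxn4 MO (circles, n = 2), foxn4 CRISPR (squares, n = 2) and MCIDAS control caps (triangles, n = 3), as CPM plus 0.1 on a log axis, with bars at the group means. PSAT1 a lies on scaffold 29017 and b on 86871, ATF4 a on 78978 and b on 12423, and SESN1 on 8355. From PSAT1 to P2RX7 both morpholino libraries exceed all others, while for SESN1 the foxn4 CRISPR libraries lie between the 2 morpholino libraries and the controls lie lower.

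Genes of the DNA damage response had 24 of 64 models higher and 9 lower, with a median of 0.53. Against foxn4 CRISPR caps 0 rose and 3 fell, where 2.65% and 2.82% of all models did. In the named rises, FAS, a death receptor, stood at 4.81 and 3.59 CPM in foxn4 MO caps, against 0.635, 0.169 and 0.631 CPM in MCIDAS control caps (log2 fold change 3.12 ± 0.55, edgeR adjusted p = 0.00167). Its copy on scaffold 79772 was not called (1.18 and 4.43 CPM in MO caps against 3.81, 1.86 and 3.56 in control caps). EDA2R, a receptor of the TNF family, had 5.01 and 33.4 CPM in MO caps against 2.98, 3.38 and 1.20 in control caps (log2 fold change 2.94 ± 0.65, edgeR adjusted p = 0.00514). CASP8, the caspase below such receptors, had 1.18 and 2.47 CPM in MO caps against 0.127, 0 and 0.0574 in control caps (ratio 39.2, 95% interval 11.04 to 169.6, edgeR adjusted p = 0.00122). GADD45B (0 and 0.112 CPM in MO caps against 1.52, 3.44 and 1.03 in control caps; control over MO ratio 28.3, 95% interval 7.64 to 237, edgeR adjusted p = 0.00484), BTG2 (2.85 and 3.65 CPM in MO caps against 17.4, 26.8 and 18.5 in control caps, log2 fold change -2.67 ± 0.39) and the cyclin CCNG2 (3.24 and 3.14 CPM in MO caps against 15.9, 23.4 and 15.8 in control caps, -2.52 ± 0.44), known as brakes on growth, were lower. EDA2R was not called without foxn4 MO replicate 2 (0.98).

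Other genes of this response, chosen after their values were seen, were higher with a wide spread. SESN1, a sestrin induced by DNA damage, stood at 10.9 and 44.5 CPM in foxn4 MO caps, against 5.84, 4.80 and 3.27 CPM in MCIDAS control caps on scaffold 8355 (log2 fold change 2.59 ± 0.49, edgeR adjusted p = 0.00247). On scaffold 275342 its copy had 7.76 and 26.9 CPM in MO caps against 3.43, 2.82 and 3.73 in control caps (log2 fold change 2.39 ± 0.45, edgeR adjusted p = 0.00246). MDM2, a ubiquitin ligase, had 42.9 and 85.2 CPM in MO caps against 22.8, 27.98 and 18.1 in control caps (log2 fold change 1.48 ± 0.31, edgeR adjusted p = 0.00387). FBXW7, a subunit of another ubiquitin ligase, had 14.05 and 15.4 CPM in MO caps against 1.90, 3.55 and 2.35 in control caps (log2 fold change 2.49 ± 0.35, edgeR adjusted p = 0.000595). For SESN1 foxn4 MO replicate 2 was several times replicate 1. Without foxn4 MO replicate 2, the SESN1 copies stood at 1.23 and 1.22, and MDM2 at 0.90. Over summed copies MDM2 was not called (0.22).

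Innate immune and interferon genes had 18 of 68 models higher and 16 lower, with a median of -0.19. These shares were 26.5 and 23.5%, near the 23.9 and 21.1% of all models. Against foxn4 CRISPR caps 6 were higher and 1 lower, where 2.65% and 2.82% of all models were. IL1B, an inflammatory cytokine, stood at 0.884 and 3.93 CPM in foxn4 MO caps, against 0.0635, 0 and 0 CPM in MCIDAS control caps and at 0 in foxn4 CRISPR caps (ratio 144, 95% interval 25.1 to 5746, edgeR adjusted p = 0.00172 against MCIDAS control caps, at least 19.7-fold higher, edgeR adjusted p = 0.0282 against foxn4 CRISPR caps). The receptor TLR7 had 2.26 and 2.36 CPM in MO caps against 0, 0.169 and 0 in control caps (ratio 42.4, 95% interval 12.9 to 196, edgeR adjusted p = 0.00554). The interferon regulatory factors IRF4 (0.786 and 1.46 CPM in MO caps against 11.04, 13.3 and 23.5 in control caps, log2 fold change -3.78 ± 0.51) and IRF5 (0.589 and 0.449 CPM in MO caps against 4.38, 6.88 and 4.25 in control caps, -3.32 ± 0.58) and the NF-kB inhibitor TNFAIP3 (0.0982 and 0.505 CPM in MO caps against 1.97, 4.51 and 2.70 in control caps, -3.17 ± 0.79) were lower. Another IRF4 copy, on scaffold 147859, rose (3.05 and 2.02 CPM in MO caps against 0.381, 0.959 and 1.03 in control caps, 1.65 ± 0.55). The IRF5 copy on scaffold 12518 was not called (7.07 and 12.9 CPM in MO caps against 12.7, 8.07 and 7.63 in control caps). The list held no common direction. TNFAIP3 was not called without foxn4 MO replicate 1 (-2.59), and without that library 6 of the list fell. With uniquely matching reads 9 of the list rose, and with all matching reads 30 rose.

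Ionocytes, the proton- and anion-pumping cells of the larval skin, had lower messages for their pumps in foxn4 MO caps: of 72 ionocyte models 36 fell and 10 rose, with a median of -0.90. Against foxn4 CRISPR caps 14 of the 72 fell and 4 rose, where 2.82% and 2.65% of all models did. ATP6V0A4, a membrane subunit of the proton pump, stood at 0.196 and 0.561 CPM in foxn4 MO caps and 5.78 and 20.9 CPM in foxn4 CRISPR caps, against 23.1, 61.1 and 13.3 CPM in MCIDAS control caps (log2 fold change -6.27 ± 1.07, edgeR adjusted p = 0.00144 against MCIDAS control caps, log2 fold change -4.999 ± 1.07, edgeR adjusted p = 0.0271 against foxn4 CRISPR caps). ATP6V1G3, a subunit of the same pump, had 0.0982 and 0 CPM in MO caps against 3.05, 8.91 and 2.07 in control caps (control over MO ratio 133, 95% interval 23.6 to 5255, edgeR adjusted p = 0.00252). CA4, a carbonic anhydrase, was at 0 in foxn4 MO caps on scaffold 96766, against 5.71, 6.09 and 2.41 CPM in MCIDAS control caps, at least 43.99-fold lower. The pump subunits were near background in both morpholino libraries and well above it in every control.

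Chosen after their values were seen, ATP6V1B1, the pump's ionocyte subunit, and SLC26A4, the anion exchanger pendrin, showed the same direction. ATP6V1B1 had 0.295 and 2.36 CPM in MO caps against 46.6, 154 and 39.4 in control caps (log2 fold change -5.78 ± 1.15, edgeR adjusted p = 0.00309). SLC26A4 stood at 1.87 and 1.80 CPM in foxn4 MO caps and 47.6 and 130.2 CPM in foxn4 CRISPR caps, against 52.2, 98.4 and 23.5 CPM in MCIDAS control caps (log2 fold change -4.98 ± 0.79, edgeR adjusted p = 0.00104 against MCIDAS control caps, log2 fold change -5.60 ± 0.83, edgeR adjusted p = 0.00615 against foxn4 CRISPR caps). The named rises were other carbonic anhydrases: CA4 on scaffold 43729 had 36.6 and 15.5 CPM in MO caps against 0.127, 0.113 and 0.115 in control caps (log2 fold change 7.68 ± 0.56, edgeR adjusted p = 5.26e-05). A CA14 model stood at 1.47 and 3.26 CPM over controls at 0, at least 44.3-fold higher. The more abundant CA14 copy, on scaffold 26819, was not called (39.0 and 36.9 CPM in MO caps against 37.5, 37.1 and 33.9 in control caps, 0.07 ± 0.21). The CA14 copy on scaffold 36991 was not called either. Another CA4 model, on scaffold 187496, stood at 0.393 and 0.505 CPM over controls at 0, at least 8.002-fold higher. A further CA4 copy, on scaffold 97703, rose (15.2 and 10.1 CPM in MO caps against 6.98, 4.85 and 7.80 in control caps, log2 fold change 0.95 ± 0.32). The most abundant one, on scaffold 47398, was not called (80.8 and 66.3 CPM in MO caps against 70.6, 80.9 and 114 in control caps, -0.27 ± 0.29). Over its summed copies CA4 stood at 0.20 on the log2 scale. Without foxn4 MO replicate 1 the list had 22 falls.

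FOXI1, the forkhead factor that defines ionocytes in frog skin, had models moving both ways, and these too were chosen after their values were seen. The models on scaffold 179377 (2.95 and 3.31 CPM in MO caps against 11.4, 48.01 and 11.6 in control caps, log2 fold change -2.91 ± 0.70) and on scaffold 48253 (5.01 and 2.58 CPM in MO caps against 9.39, 37.2 and 10.1 in control caps, -2.34 ± 0.64) were lower. On scaffold 1168 the model at 1527034 stood at 23.4 and 13.02 CPM in foxn4 MO caps, against 0.444, 0.226 and 0.516 CPM in MCIDAS control caps (log2 fold change 5.49 ± 0.40, edgeR adjusted p = 5.23e-05). The one at 1510409 had 226 and 179.6 CPM in MO caps against 13.8, 4.91 and 13.5 in control caps (log2 fold change 4.24 ± 0.41, edgeR adjusted p = 0.000115). On scaffold 3467 the models at 436433 and 411315 had 80.95 and 76.6 CPM in MO caps against 1.90, 4.12 and 1.95 in control caps (4.88 ± 0.35) and 18.9 and 5.95 CPM in MO caps against 0.888, 1.02 and 0.746 in control caps (3.79 ± 0.48). The models that were higher sat next to one another on 2 scaffolds, and the models that were lower each sat on another. Summed over FOXI1 models the change was a rise of 2.49. The model on scaffold 179377 was not called without foxn4 MO replicate 1 (-2.84) or 2 (-3.01), and that on scaffold 48253 without replicate 2 (-1.92). Without MCIDAS control replicate 2 their values were -1.88 and -1.40.

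Goblet and small secretory cells, which coat the larval skin with mucus and serotonin, were represented by 42 models, of which 19 fell and 8 rose, with a median of -0.67. ITLN1, an intelectin that is a main goblet cell product in Xenopus, stood at 29.3 and 37.4 CPM in foxn4 MO caps and 185 and 262 CPM in foxn4 CRISPR caps, against 815, 2358 and 1252 CPM in MCIDAS control caps (log2 fold change -5.46 ± 0.50, edgeR adjusted p = 9.97e-05 against MCIDAS control caps, log2 fold change -2.74 ± 0.45, edgeR adjusted p = 0.00992 against foxn4 CRISPR caps). The calpain CAPN9 had 1.77 and 2.97 CPM in MO caps against 137, 143 and 103 in control caps on scaffold 121003 (log2 fold change -5.72 ± 0.45, edgeR adjusted p = 5.84e-05). On scaffold 45174 its copy had 0.295 and 1.12 CPM in MO caps against 88.97, 105 and 62.3 in control caps (log2 fold change -6.77 ± 0.66, edgeR adjusted p = 0.000122). ITLN1 and CAPN9 were lowest in both morpholino libraries, intermediate in foxn4 CRISPR caps and highest in the controls. Summed over 4 goblet markers with a model, foxn4 MO caps had 170.5 and 252.5 CPM and MCIDAS control caps 1250, 2909 and 1698 CPM, most of it ITLN1 in the controls. ITLN2, a second intelectin of that set chosen after its values were seen, went the other way on scaffolds 3467 (76.4 and 117 CPM in MO caps against 41.6, 44.6 and 40.7 in control caps, log2 fold change 1.19 ± 0.25) and 43242 (5.11 and 4.72 CPM in MO caps against 2.22, 1.92 and 3.10 in control caps, 1.02 ± 0.35). The call on scaffold 43242 was lost without any 1 of foxn4 MO replicates 1 and 2 and MCIDAS control replicates 1 and 2 (0.86 to 1.07).

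The named rises of that list were TFF2, a trefoil peptide of mucus (1.18 and 1.29 CPM in MO caps against 0.19, 0.113 and 0.115 in control caps, log2 fold change 3.09 ± 0.62, edgeR adjusted p = 0.00333), and PAX6, a factor better known from eye and brain, on scaffolds 51988 (1.18 and 0.337 CPM in MO caps against 0, 0.169 and 0 in control caps, log2 fold change 3.44 ± 1.08) and 74352 (0.688 and 0.449 CPM in MO caps against 0.127, 0 and 0.0574 in control caps). PAX6 on scaffold 51988 was not called without foxn4 MO replicate 1 (2.36) or MCIDAS control replicate 1 or 3 (2.95, 2.90). The call on scaffold 74352 ended without foxn4 MO replicate 1 or 2 or MCIDAS control replicate 2 or 3, at fitted values from 2.48 to 3.34. Rises in the list numbered 4 without foxn4 MO replicate 1 and 4 with uniquely matching reads.

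Epidermal and basal cell genes had 27 of 82 models lower and 11 higher, with a median of -0.28. TP63, the master factor of basal epidermal cells, stood at 0.884 and 0.281 CPM in foxn4 MO caps, against 9.20, 83.4 and 19.7 CPM in MCIDAS control caps on scaffold 30987 (log2 fold change -6.12 ± 1.13, edgeR adjusted p = 0.00215). Its copy on scaffold 45774, which held most TP63 reads in foxn4 MO caps, was not called (23.9 and 9.88 CPM in MO caps against 20.4, 119 and 36.5 in control caps, log2 fold change -1.80 ± 0.67, edgeR adjusted p = 0.0503). ITGA6, an integrin of basal cells, had 11.1 and 9.09 CPM in MO caps against 200.5, 148 and 107 in control caps (log2 fold change -3.91 ± 0.38, edgeR adjusted p = 0.000125). Its copy on scaffold 43242 was not called (37.7 and 56.6 CPM in MO caps against 10.3, 71.1 and 27.1 in control caps). The keratin KRT18 had 0.688 and 1.18 CPM in MO caps against 6.85, 27.7 and 7.80 in control caps on scaffold 21603 (log2 fold change -3.86 ± 0.71, edgeR adjusted p = 0.00205). Its most abundant copy, on scaffold 200825, was not called (44.8 and 189 CPM in MO caps against 86.6, 150.002 and 185 in control caps, log2 fold change -0.26 ± 0.57). Adhesion genes were the named rises, CDH1, E-cadherin (57.6 and 48.4 CPM in MO caps against 7.81, 17.1 and 8.32 in control caps, log2 fold change 2.26 ± 0.36), COL17A1, a collagen of hemidesmosomes (2.85 and 12.3 CPM in MO caps against 1.78, 2.14 and 1.20 in control caps, 2.17 ± 0.50), and OCLN, occludin (7.07 and 2.69 CPM in MO caps against 1.40, 1.13 and 0.746 in control caps, 2.14 ± 0.48). Summed over 6 surface epidermis markers, foxn4 MO caps had 11170 and 15440 CPM and MCIDAS control caps 25760, 28080 and 28440 CPM. Most of the control sum was KRT12, which was lower (4279 and 6205 CPM in MO caps against 18710, 19870 and 19120 in control caps). GRHL3 went the other way (2541 and 1528 CPM in MO caps against 917.5, 980.2 and 1324 in control caps). The sums of KRT8, KRT18, CDH1 and EPCAM overlapped between the groups. COL17A1 was not called without foxn4 MO replicate 2 (0.73), OCLN without foxn4 MO replicate 1 (1.30), KRT18 on scaffold 21603 with all matching reads (-0.85) and CDH1 over summed copies (0.07). Rises numbered 7 without foxn4 MO replicate 2 and 28 with all matching reads.

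**Figure D5:**
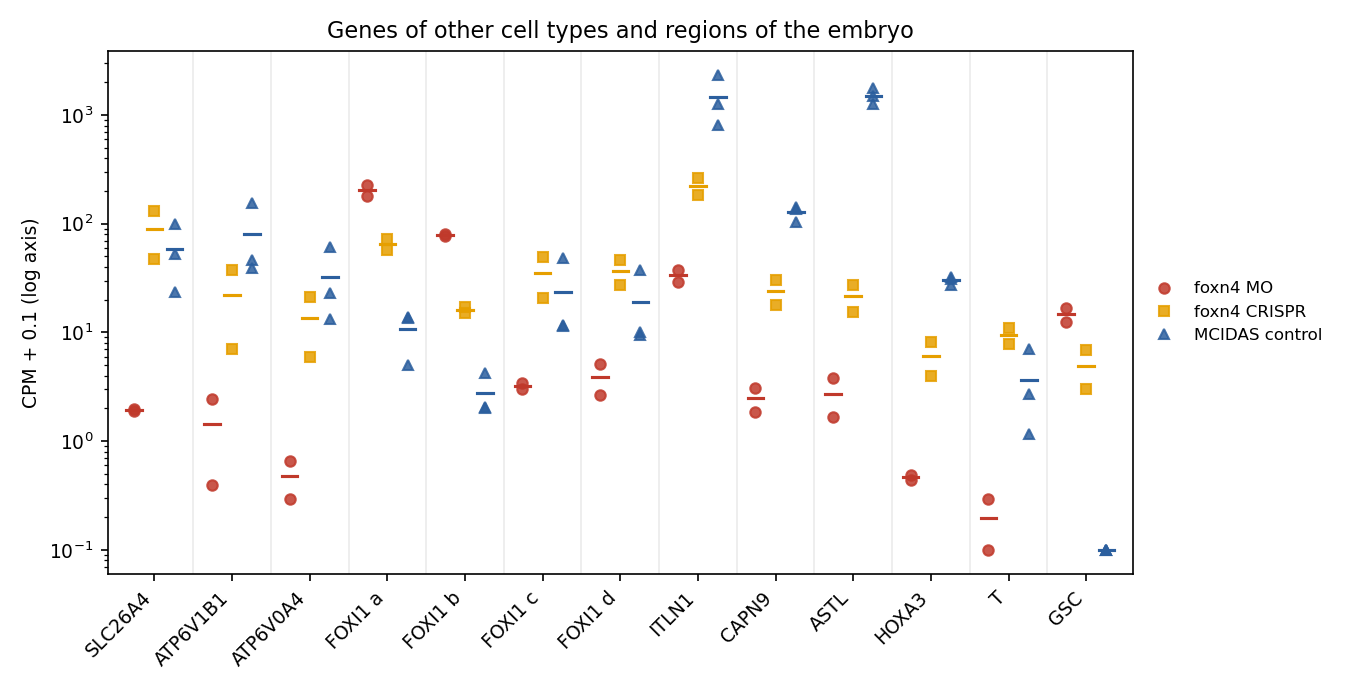
Levels of 13 gene models of other cell types and body regions in foxn4 MO (circles, n = 2), foxn4 CRISPR (squares, n = 2) and MCIDAS control caps (triangles, n = 3), as CPM plus 0.1 on a log axis, with bars at the group means. FOXI1 a to d lie on scaffolds 1168, 3467, 179377 and 48253, CAPN9 on 121003 and GSC on 96659. Except for FOXI1 a and b and GSC, both morpholino libraries lie below all controls.

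Neural and neural crest genes had the largest share of rises, 32 of 66 models with 9 falls and a median of 1.19. Against foxn4 CRISPR caps 3 of the 66 rose and 1 fell, where 2.65% and 2.82% of all models did. POU3F2, a brain POU factor, stood at 6.58 and 8.31 CPM in foxn4 MO caps, against 0.19, 0 and 0.344 CPM in MCIDAS control caps on scaffold 8630 (log2 fold change 5.33 ± 0.64, edgeR adjusted p = 0.000296). On scaffold 37448 its copy had 9.53 and 15.2 CPM in MO caps against 1.14, 0.451 and 0.172 in control caps (log2 fold change 4.40 ± 0.54, edgeR adjusted p = 0.000329). On scaffold 131887 another copy had 0.589 and 1.74 CPM in MO caps against 0.127, 0 and 0 in control caps (ratio 42.7, 95% interval 8.93 to 296, edgeR adjusted p = 0.00824). Of the reads behind these 3 rises in foxn4 MO caps only 3.71, 14.2 and 10.6% were unique to the model. SNAI2, the crest factor Slug, had 0.196 and 0.281 CPM in MO caps against 1.71, 9.42 and 2.52 in control caps on scaffold 79166 (log2 fold change -4.17 ± 0.95, edgeR adjusted p = 0.00603). On scaffold 2511 its copy had 0.491 and 0.0561 CPM in MO caps against 0.635, 6.54 and 3.10 in control caps (log2 fold change -3.83 ± 1.06, edgeR adjusted p = 0.0149). The motor neuron factor ISL1 had 0.295 and 0.954 CPM in MO caps against 3.68, 9.25 and 3.84 in control caps (log2 fold change -3.05 ± 0.62, edgeR adjusted p = 0.00339).

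The cell type markers gave sums that moved for some cell types and overlapped for others. Neural markers summed to 286.7 and 453.5 CPM in foxn4 MO caps, against 110.8, 56.52 and 152.8 CPM in MCIDAS control caps, with 12 of 15 models higher and 0 lower. Their sums were 265.7 and 341.6 CPM in foxn4 CRISPR caps and 333.1 and 395 CPM in foxj1 CRISPR caps, so this was not particular to the morpholino caps. The part of neural markers in the other results was not tested. Ionocyte markers summed to 376.5 and 305.5 CPM in foxn4 MO caps, against 170.6, 488.2 and 150.2 CPM in MCIDAS control caps, and overlapped, with 4 of 12 models higher and 8 lower. Most of the foxn4 MO sum was FOXI1 (358.1 and 281.5 CPM in MO caps against 38.46, 96.02 and 38.63 in control caps). For ATP6V1B1, ATP6V0A4, SLC4A1, CA12 and UBP1, the rest of the set, both morpholino libraries lay below all controls. Neural crest sums overlapped as well, at 28.18 and 41.05 CPM in foxn4 MO caps and 22.06, 46.04 and 39.55 CPM in MCIDAS control caps, with 3 of 5 models lower. Small secretory markers summed to 25.24 and 36.91 CPM in foxn4 MO caps and 127.5, 215.5 and 130.4 CPM in MCIDAS control caps, though FOXA1 of that set overlapped. Basal markers summed to 79.04 and 80.52 CPM in foxn4 MO caps and 111.2, 261.2 and 105.6 CPM in MCIDAS control caps, though VIM overlapped. Mesoderm and muscle markers summed to 5.037 and 8.21 CPM in foxn4 MO caps and 10.35, 41.72 and 17.91 CPM in MCIDAS control caps, with 2 of 10 models higher and 3 lower. Most of that control sum was ACTA1 and T. TBX6 (1.99 and 3.26 CPM in MO caps against 1.14, 0.846 and 1.84 in control caps) and MYOD1 (0.688 and 2.02 CPM in MO caps against 0.19, 0.169 and 0.631 in control caps) went the other way. Endoderm markers summed to 4.816 and 7.067 CPM in foxn4 MO caps and 0.8252, 1.354 and 2.355 CPM in MCIDAS control caps. Blood markers summed to 59.03 and 58.36 CPM in foxn4 MO caps and 149, 134 and 148 CPM in MCIDAS control caps. Nearly all of these blood sums was TAL1 (58.74 and 57.8 CPM in MO caps against 144.5, 131.9 and 143.8 in control caps). The defining genes SOX10 of crest, MYF5 of muscle, HBA1 of blood and TPH1 of small secretory cells were under 1 CPM in every library of both groups. Counted per symbol, 11 of the 43 neural and crest symbols with a model rose, where 2968 of all 13473 symbols did. Both totals include symbols that the low-count filter can drop. Without foxn4 MO replicate 1 or 2 the rises numbered 21 and 18, and POU3F2 on scaffold 131887 was not called without replicate 2 (3.61), SNAI2 on scaffold 2511 without replicate 2 (-2.79) and on scaffold 79166 without replicate 1 (-3.99).

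HOX genes, which set position along the body axis, fell or were not called: 11 of 30 models fell and 0 rose, with a median of -2.85, or -2.66 with 3 models that had a group at 0 set to their bound. HOXA3, a HOX gene of the hindbrain and branchial region, stood at 0.393 and 0.337 CPM in foxn4 MO caps and 3.86 and 8.01 CPM in foxn4 CRISPR caps, against 32.4, 27.2 and 30.9 CPM in MCIDAS control caps (log2 fold change -6.36 ± 0.52, edgeR adjusted p = 6.48e-05 against MCIDAS control caps, log2 fold change -4.03 ± 0.52, edgeR adjusted p = 0.00336 against foxn4 CRISPR caps). It was close to 0 in both morpholino libraries and present in every library of the other 2 groups. Without MCIDAS control replicate 3 the list had 3 rises and a median of only -0.64 over 28 models tested, so the median given above rested largely on that library.

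Genes of mesoderm, organizer and endoderm had 8 of 36 models higher, 6 lower and a median of -0.11. These shares were 22.2 and 16.7%, near the 23.9 and 21.1% of all models. TAL1, a blood factor chosen after its values were seen, was the abundant one among the falls (58.7 and 57.8 CPM in MO caps against 144, 132 and 144 in control caps, log2 fold change -1.26 ± 0.21). Only 4.42% of its reads in foxn4 MO caps and 9.26% in MCIDAS control caps were unique to the model. It had 63.7 and 73.7 CPM in foxn4 CRISPR caps and 44.8 and 47.8 CPM in foxj1 CRISPR caps. The lower TAL1 level was thus not particular to the morpholino caps. GSC, goosecoid, an organizer factor, stood at 12.5 and 16.7 CPM in foxn4 MO caps over controls at 0 on scaffold 96659, at least 257-fold higher. On scaffold 39723 its copy had 1.87 and 1.68 CPM in MO caps against 0.0635, 0 and 0 in control caps (ratio 89.5, 95% interval 15.3 to 3591, edgeR adjusted p = 0.00295). CER1, a secreted organizer antagonist, had 0.786 and 0.281 CPM over controls at 0, at least 7.82-fold higher, a call that ended without foxn4 MO replicate 1. T, Brachyury, a mesoderm factor, had 0.196 and 0 CPM in foxn4 MO caps and 10.96 and 7.77 CPM in foxn4 CRISPR caps, against 2.60, 1.07 and 6.94 CPM in MCIDAS control caps (control over MO ratio 49.8, 95% interval 13.6 to 414, edgeR adjusted p = 0.00372). ACTA1, muscle actin, had 0 and 0.281 CPM in MO caps against 2.28, 17.7 and 3.27 in control caps on scaffold 44061 and 0.196 and 0.225 CPM in MO caps against 3.30, 20.03 and 3.27 in control caps on scaffold 272406, with MCIDAS control replicate 2 the high library for both. The GSC models and this T model, on scaffold 312114, were on opposite sides of the controls. Another T copy, on scaffold 14467, was not called (0.295 and 0.674 CPM in MO caps against 0.254, 0.169 and 0.344 in control caps). Its log2 fold change was 0.97 ± 0.56. GSC on scaffold 96659 had 2.89 and 6.74 CPM in foxn4 CRISPR caps and 1.52 and 2.06 CPM in foxj1 CRISPR caps. ACTA1 on scaffold 44061 was not called without foxn4 MO replicate 1 (-4.75). The rises numbered 5 without foxn4 MO replicate 1, MCIDAS control replicate 1 or replicate 2, and the falls 3 without foxn4 MO replicate 1.

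Partners and targets of Foxn4 known from retina and spinal cord in other vertebrates had 8 of 27 models higher and 4 lower, with a median of -0.07. These shares were 29.6 and 14.8%, near the 23.9 and 21.1% of all models. ATOH7, a factor of retinal ganglion cells, stood at 2.06 and 1.07 CPM in foxn4 MO caps, against 0, 0.0564 and 0 CPM in MCIDAS control caps (ratio 72.7, 95% interval 12.3 to 2944, edgeR adjusted p = 0.00122). It had 2.53 and 2.38 CPM in foxn4 CRISPR caps and 3.54 and 1.18 CPM in foxj1 CRISPR caps. The ATOH7 rise was thus not particular to the morpholino caps, and 15.0% of its foxn4 MO reads were unique to the model. Another named rise was DLL1, given with the Notch genes. TFAP2B, of amacrine cells and crest, had 9.82 and 12.1 CPM in MO caps against 54.1, 44.2 and 46.1 in control caps (log2 fold change -2.13 ± 0.24, edgeR adjusted p = 0.000232). MEIS1 had 14.7 and 16.4 CPM in MO caps against 41.6, 56.9 and 52.2 in control caps (log2 fold change -1.69 ± 0.38, edgeR adjusted p = 0.00558). BHLHE22 had 0.196 and 0.281 CPM in MO caps against 1.71, 1.07 and 1.55 in control caps (log2 fold change -2.51 ± 0.71, edgeR adjusted p = 0.0164). BHLHE22 was not called without foxn4 MO replicate 1 (-2.33) or 2 (-2.83). TFAP2B, with 2.22% unique reads, was not called with all matching reads (-0.14), and rises in the list numbered 5 without foxn4 MO replicate 1 and 4 with uniquely matching reads.

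Planar polarity genes, which align cilia across the tissue, had 11 of 40 models lower and 6 higher, with a median of -0.01. That was 27.5% lower and 15% higher, against 21.1 and 23.9% of all models. The Wnt receptor FZD7 stood at 44.5 and 35.5 CPM in foxn4 MO caps, against 5.01, 5.75 and 3.33 CPM in MCIDAS control caps on scaffold 139113 (log2 fold change 3.09 ± 0.34, edgeR adjusted p = 0.000197). On scaffold 20345 its copy had 25.7 and 21.5 CPM in MO caps against 6.47, 3.72 and 5.34 in control caps (log2 fold change 2.19 ± 0.29, edgeR adjusted p = 0.000441). VANGL2 on scaffold 226 (57.96 and 65.3 CPM in MO caps against 25.1, 37.5 and 30.1 in control caps, log2 fold change 0.998 ± 0.23) was higher. Its relative VANGL1 on scaffold 347078 (17.8 and 44.9 CPM in MO caps against 73.7, 96.6 and 118 in control caps, -1.61 ± 0.38), the adaptor DVL3 on scaffold 29016 (6.48 and 9.71 CPM in MO caps against 58.6, 45.02 and 44.5 in control caps, -2.60 ± 0.38) and PRICKLE2 on scaffold 229341 (1.57 and 1.57 CPM in MO caps against 6.98, 19.1 and 13.9 in control caps, -3.08 ± 0.50) were lower. Other copies did not all follow. VANGL2 on scaffold 41091 (39.2 and 29.1 CPM in MO caps against 26.5, 58.8 and 59.3 in control caps, -0.50 ± 0.35) was not called. DVL3 on scaffolds 84584 (109.8 and 108 CPM in MO caps against 163, 134 and 177 in control caps, -0.53 ± 0.22) and 47457 (23.1 and 26.9 CPM in MO caps against 23.5, 14.8 and 19.9 in control caps, 0.37 ± 0.26) and PRICKLE2 on scaffold 34527 (55.8 and 44.1 CPM in MO caps against 34.1, 38.5 and 40.5 in control caps, 0.40 ± 0.21) were not called. VANGL1 stood at -2.44 without foxn4 MO replicate 2, the rises numbered 3 without that library, and the falls 5 without foxn4 MO replicate 1.

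In the BMP pathway, which patterns ectoderm, 15 of 50 models were higher and 7 lower, with a median of 0.26. That was 30 and 14%, against 23.9 and 21.1% of all models. The ligand BMP7 had 2.06 and 4.27 CPM in MO caps against 0.0635, 0 and 0 in control caps on scaffold 351606 (ratio 161, 95% interval 31.3 to 7111, edgeR adjusted p = 0.000227) and 2.16 and 1.63 CPM in MO caps against 5.97, 47.5 and 13.1 in control caps on scaffold 14557 (log2 fold change -3.56 ± 0.82). A model of the receptor ACVR1 had 6.98 and 8.36 CPM in MO caps against 0.0635, 0.113 and 0 in control caps (ratio 129, 95% interval 45.04 to 652, edgeR adjusted p = 9.97e-05). More abundant ACVR1 copies were not called. On scaffold 4321 the copy had 22.1 and 29.9 CPM in MO caps against 28.4, 33.8 and 32.6 in control caps (-0.28 ± 0.24). On scaffold 43242 it had 30.5 and 28.5 CPM in MO caps against 17.9, 21.4 and 19.9 in control caps (0.58 ± 0.23). The antagonist GREM1 had 2.16 and 1.12 CPM in MO caps against 0, 0.0564 and 0 in control caps (ratio 75.7, 95% interval 12.98 to 3088, edgeR adjusted p = 0.00101). The receptor BMPR2 (0.393 and 0.674 CPM in MO caps against 2.79, 13.9 and 3.67 in control caps, log2 fold change -3.60 ± 0.77) and the protease BMP1, at 0 in foxn4 MO caps and 16.2, 20.9 and 13.3 CPM in MCIDAS control caps, were lower. BMP7 and ACVR1 reads that rose were 6.15 and 0% unique. Other copies of BMP7 and BMP1 were called too. BMP7 rose on scaffold 59883, its most abundant model (155 and 121 CPM in MO caps against 9.90, 8.69 and 11.2 in control caps, 3.80 ± 0.23). It fell on scaffold 13471 (3.73 and 2.25 CPM in MO caps against 9.39, 56.5 and 18.2 in control caps, -3.25 ± 0.70). BMP1 rose on scaffolds 59267 (8.65 and 10.5 CPM in MO caps against 1.84, 0.959 and 2.18 in control caps, 2.53 ± 0.45) and 139741 (14.9 and 15.4 CPM in MO caps against 2.79, 4.80 and 5.16 in control caps, 1.83 ± 0.32). Over summed copies BMP7 stood at 1.30 and BMP1 at 0.15. BMP7 on scaffold 14557 stood at -2.36 without MCIDAS control replicate 2 and was not called without foxn4 MO replicate 2 (-3.36), and the falls of the list numbered 12 without MCIDAS control replicate 1.

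Copies of one gene often differed. Of 155 named models called against MCIDAS control caps, 115 had another tested model of the same symbol. For 78 of these another copy was called in the same direction. For 17 another was called in the opposite one. For 65 another copy was more abundant. Abundant copies that were not called include OCLN on scaffold 1187 (401 and 494 CPM in MO caps against 313, 318 and 357 in control caps, log2 fold change 0.44 ± 0.23), JUN on scaffold 155039 (27.1 and 21.3 CPM in MO caps against 53.7, 14.8 and 17.4 in control caps, -0.24 ± 0.49), SPAG1 on scaffold 34503 (351 and 384 CPM in MO caps against 564, 349 and 509 in control caps, -0.37 ± 0.25) and FBXW7 on scaffold 99286 (34.4 and 41.3 CPM in MO caps against 27.5, 27.6 and 23.3 in control caps, 0.53 ± 0.22). Likewise not called were RFX2 on scaffold 325448 (337 and 409 CPM in MO caps against 294, 213 and 278 in control caps, 0.51 ± 0.23) and TP73 on scaffold 208071 (106 and 103 CPM in MO caps against 185, 91.4 and 150.1 in control caps, -0.44 ± 0.29). They were chosen after their values were seen. Calls on copies beside the named ones were not recomputed with libraries left out.

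Binding of Foxn4 was measured by ChIP-seq in separate caps, with 1 library of Foxn4 alone and 1 with Multicilin, so peaks have no replicate check. A model counted as having a peak when an authors' peak centre lay within 1000 bp of its 5′ end. Peaks of Foxn4 alone lay at 67.5% of the models that fell in foxn4 MO caps, 58.1% of those that rose and 65.03% of those not called, and peaks of Foxn4 with Multicilin at 46.5, 32.8 and 38.6%. Those shares are for calls against MCIDAS control caps, where in both peak lists the share was highest at falls and lowest at rises. For calls against foxn4 CRISPR caps, peaks of Foxn4 alone lay at 57.2% of falls, 43.0% of rises and 64.7% of models not called. Peaks of Foxn4 with Multicilin lay there at 39.7, 24.8 and 39.3%. Over all tested models 63.9% had a Foxn4 peak.

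Each ciliary list had a larger share of models with a peak than that. A Foxn4 peak lay at 82.8% of dynein arm models, 91.3% of assembly factors, 87.0% of axoneme models, 89.6% of transport models, 89.3% of transition zone models and 89.5% of centriole models. Of the 39 axoneme models that fell 34 had a peak, as had 18 of 19 dynein arm models, 12 of 13 assembly factors and 25 of 28 transport models. Among falls of the other ciliary lists it was 8 of 10 transition zone models and 14 of 15 centriole models. These counts are to be read against the shares of the whole lists just given. DNAH2, TEKT3 on both scaffolds, ODF3, IFT46, FBF1 and CEP164 each had a peak in both lists. At the other end, 23.3% of HOX models and 25.9% of Foxn4 partners from retina and spinal cord had a peak, and HOXA3 had none. FOXN4 and FOXJ1 models all had a peak in both lists, although none of them was called.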

How the data were processed

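RNA levels came from deposited eXpress files, 1 per library, that give each gene model an estimated count, where a read that matches several models is divided among them, per the file headers. These deposited files also give a count of uniquely matching and a count of all matching reads. The series' design text names the Mayball gene models as the target of alignment, and STAR, eXpress, DESeq, Bowtie2 and HOMER are named in the submitters' processing notes, without versions. The deposited HOMER peak lists hold a score and a signal of normalized tags, per the file headers, and the score was used only to pick the upper part of a list. The authors' comparison tables were not used.

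Estimated counts were rounded and tested with edgeR 4.0.16 (R 4.3.3) by quasi-likelihood, with TMM scaling and the default low-count filter. All 9 RNA libraries shared 1 fit with 4 groups and 5 residual degrees of freedom. The biological coefficient of variation was 0.31. All adjusted p-values are edgeR's, with Benjamini-Hochberg adjustment over 19058 models. Where a group was at 0, folds are bounds against 3 counts over the group. Where it had up to 3 counts, ratios are of reads summed over the group per library size and carry a 95% exact interval on the rounded sums, which covers counting error only. Alternatives were RLE scaling, no filter, DESeq2 1.42.0, unique or all matching reads, summed symbols, a replicate block, the 2 groups alone, and leaving out each library. The procedure was tested on simulated data. No pair of replicates agreed within sampling noise.

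The comparison and the 21 gene lists were chosen with earlier results of these data known. Named were the targets, up to 3 called models with the largest rise and fall per list, and the 12 largest of each over all models with at least 5 CPM in the higher group and no overlap between groups (131 models). A further 30 were named after their values were seen, as stated beside them. Some genes that this rule names are not reported here. Models without a symbol, 519 in all, held 1.7 to 2.43% of reads. Coordinates are 1-based on scaffolds of version 7.1.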

Additional observations from a re-analysis of the deposited data

Results flagged for a closer look

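The models below differed between foxn4 MO and foxn4 CRISPR caps, tested directly in the same edgeR fit at an adjusted p under 0.05. All are among the models already named, and the adjustment covered all 19058 models tested. Each value is a log2 fold change of foxn4 MO over foxn4 CRISPR caps (n = 2 each), unless a ratio is given.

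Higher in foxn4 MO caps were the stress genes PSAT1 on scaffolds 29017 (6.06) and 86871 (7.37), CHAC1 (7.56), DDIT3 (3.65), ATF4 on scaffolds 12423 (1.49) and 78978 (1.32), JUN (2.94) and IER2 (1.96). P2RX7 stood at 6.13, and IL1B and TLR7 were at least 19.7-fold and at least 16.2-fold higher over foxn4 CRISPR libraries at 0. The cell cycle genes CDC25B (2.82) and CCNE2 (1.25), the Notch target HES5 (2.54), the receptors FZD7 (2.01) and ACVR1 (2.23), CA4 on scaffold 43729 (3.67), BCS1L (3.13) and FOXI1 on scaffolds 1168 (1.70) and 3467 (2.29) were higher as well. The ratio for HIST2H2AB was 217, and TMEM174 was at least 57.0-fold higher.

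Lower in foxn4 MO caps were the ionocyte genes SLC26A4 (-5.60), ATP6V0A4 (-5.00) and FOXI1 on scaffolds 179377 (-3.48) and 48253 (-3.30). ATP6V1G3 had a ratio of 65.6 in favour of foxn4 CRISPR caps, and CA4 on scaffold 96766 was at least 8.48-fold higher in foxn4 CRISPR caps. The goblet genes CAPN9 on scaffolds 121003 (-3.32) and 45174 (-4.07) and ITLN1 (-2.74), the position gene HOXA3 (-4.03), the protease ASTL (-2.97) and the transport gene IFT46 (-1.61) were lower. So were CDC25A (-2.59), BTG2 (-1.93), CCNG2 (-1.95), DVL3 (-1.61) and TFAP2B (-1.73). T, SYT13 and FCN1 had ratios of 126, 54.9 and 15.6 in favour of foxn4 CRISPR caps.

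Of these 42 models, 38 lost the call without 1 of the 4 libraries of the 2 groups. CHAC1, PSAT1 on scaffold 86871, CAPN9 on scaffold 121003 and HOXA3 were called under every alternative in which they were tested.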

How the results depend on the processing

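Against MCIDAS control caps the counts of models higher and lower (4553 and 4018) were 2968 and 2555 with models of 1 symbol summed, and 3000 to 4721 and 2310 to 4287 with 1 library left out, lowest without foxn4 MO replicate 1. Against foxn4 CRISPR caps (505 and 537) they were 897 and 1276 with DESeq2, 2062 and 1489 with all matching reads, 288 and 326 with summed symbols, and 61 to 318 and 60 to 452 with 1 library left out; with uniquely matching reads 813 were lower. The share higher among models called there was 58.1% with all matching reads and 67.2% without foxn4 MO replicate 1. The labels do not say whether replicate numbers pair the samples. Same-numbered foxn4 MO and MCIDAS control libraries had deviations from their group means correlated at -0.085 and -0.134, and foxn4 MO and foxn4 CRISPR libraries at 0.0919. In a group of 2 libraries the 2 deviations mirror each other, so these values cannot decide whether samples are paired. A replicate block gave 3695 and 3526 against MCIDAS control caps and 349 and 488 against foxn4 CRISPR caps. With the block 6 assembly factors, 16 transport models and 2 transition zone models fell.

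Of 155 named calls against MCIDAS control caps, 89 kept direction and side of the threshold under every alternative in which they were tested. Some models had too few reads for an alternative, such as uniquely matching reads, and were not tested there. Without some library 42 were lost. Reversed with summed symbols were AK5 (-2.72), BMP1 (0.15), BMP7 on scaffold 14557 (1.30), CA4 on scaffold 96766 (0.20, and 1.63 over foxn4 CRISPR caps), FOXI1 on scaffolds 179377 and 48253 (2.49, and 0.95 over foxn4 CRISPR caps) and TMEM67 (-0.68). Reversed with all matching reads were BCS1L (-0.042), EGR1 (1.11), FOXJ1 on scaffolds 71264 (-0.027) and 106323 (-0.29), and TFAP2B over foxn4 CRISPR caps (0.73). BCS1L over foxn4 CRISPR caps was -7.35 with uniquely matching reads. FOXJ1 on scaffold 106323, not called, was between -0.072 and 0.35 with 1 library left out, lowest without foxn4 MO replicate 2, and -0.0089 without MCIDAS control replicate 2. The cause was not tested. With 2 morpholino libraries, of which the first held 8570033 reads, models near 0 have wide intervals.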

Other observations

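Some genes stood alone in the 2 nuclease groups rather than in the morpholino group. In all, 27 models were under 0.5 CPM in all 4 foxn4 and foxj1 CRISPR libraries and at 1 CPM or more in all 5 foxn4 MO and MCIDAS control libraries, and 16 models showed the opposite; the limits were chosen after the data were seen. TMEM88, an inhibitor of Wnt signalling, stood at 10.5 and 16.9 CPM in foxn4 MO caps and at 0 in all 4 CRISPR libraries, against 7.11, 4.96 and 9.01 CPM in MCIDAS control caps. PMCH, the precursor of melanin-concentrating hormone, had 57.8 and 37.6 CPM in foxn4 MO caps and 0 and 0.476 CPM in foxn4 CRISPR caps, against 14.5, 6.26 and 26.05 CPM in MCIDAS control caps. In the other direction PDE6B, a phosphodiesterase of rod photoreceptors, had 0.295 and 0.449 CPM in foxn4 MO caps and 11.0 and 10.3 CPM in foxn4 CRISPR caps, against 0 in all 3 MCIDAS control libraries.

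Single libraries stood apart for some messages. RDH10, a retinol dehydrogenase, had 1408 CPM in foxn4 MO replicate 1 and 23.5 CPM in replicate 2, against 4.51, 9.48 and 5.74 CPM in MCIDAS control caps. GPR151 had 1.96 and 1.29 CPM in foxn4 MO caps and 1.20 and 475 CPM in foxn4 CRISPR caps, against 652, 84.8 and 310 CPM in MCIDAS control caps.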
